A study of Mus musculus with 6 samples.

Results

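Oxidative phosphorylation is carried out in the inner mitochondrial membrane by 5 protein complexes, and the genes described here are nuclear genes named for their subunits. They were chosen by name among the 55385 genes of the count table: names that begin with Nduf followed by a, b, c, s or v and a number (complex I), *Sdha* to *Sdhd* (complex II), names that begin with Uqcr (complex III), Cox4 to Cox8 names (complex IV) and Atp5 names (complex V). The rule used no expression value. It found 89 entries with 88 different names, of which 40 belong to complex I, 4 to complex II, 8 to complex III, 19 to complex IV and 18 to complex V. *Atp5o* is listed under 2 identifiers, and the second had 0 counts in every library. The annotation gives 4 of the entries as processed pseudogenes, namely *Ndufa11b*, *Ndufb4c*, *Ndufs6b* and *Cox6c2*, and of these *Ndufs6b* and *Cox6c2* were tested. The genes lie on 19 chromosomes of GRCm38, so their position has little in common. On chromosome 8 there are 3 of them, and on chromosome 1, which carries the deletion described below, there are 6. *Ndufa4* carries a complex I name and is counted there, although its product is now placed with complex IV.

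Complex I, the NADH dehydrogenase, and complex II, succinate dehydrogenase, feed electrons into the chain. Complex III passes them to cytochrome c and complex IV passes them to oxygen, while complexes I, III and IV pump protons that complex V, the ATP synthase, uses to make ATP. The catalytic cores of complexes I, III and IV are in part encoded by mitochondrial DNA, so nuclear and mitochondrial genes have to be expressed together. Pluripotent mouse stem cells are known for active glycolysis beside respiration.

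RNA was sequenced from G4 mouse embryonic stem cells (mESCs), an F1 hybrid line of 129/Sv and C57BL/6 background grown with leukemia inhibitory factor on feeder cells. The 3 genotypes were wild-type, heterozygous deletion of the *Wnt6* anchor and homozygous deletion of the *Wnt6* anchor, with 2 labeled libraries each. The anchor is a stretch of chromosome 1 that contains *Wnt6* and takes part in long-range Polycomb contacts, and it was removed by CRISPR-Cas9. The deletion lines were raised from selected clones, so a genotype and the clone that carries it cannot be told apart. The labels do not say whether the 2 libraries of a genotype came from separate cultures, and p-values here measure only the spread between these libraries.

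The libraries held between 23813912 and 28964706 counts. *Wnt6* had 11 and 13 counts in the wild-type libraries, 6 and 4 in the heterozygous libraries and 0 in both homozygous libraries, so the targeted gene followed the labels. The 9 pluripotency markers examined, *Pou5f1* and *Nanog* among them, were all detected. Collagens and other markers of fibroblasts, the cell type of a feeder layer, differed between the genotypes. All 20 of them were detected, and they summed to 2998 and 3007 CPM, which are counts scaled to a library size of 1e6, in the wild-type libraries, 2261 and 2222 in the heterozygous and 1531 and 1520 in the homozygous libraries. Of the 19 that were tested, 16 fell in the heterozygous and 18 in the homozygous cells against wild-type, and the part of this in the values below was not tested. In a bulk sample, fewer cells of a type and less RNA per cell cannot be told apart.

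In wild-type mESCs the nuclear genes of the respiratory chain were expressed at high and at very unequal levels. Levels are given as CPM per kilobase of transcript, so that genes of different length can be set side by side. A gene was tested when it had at least 10 counts in at least 2 libraries, which 83 of the 89 entries did. The others were *Cox6a2*, *Cox8b*, *Cox8c*, *Ndufa11b*, *Ndufb4c* and the second entry of *Atp5o*. Of these 83, 65 were at or above the 90th percentile of all 16951 tested genes and 75 at or above the 80th. Together the 89 entries took between 1.04% and 1.10% of all counts in each of the 6 libraries. Complex V alone took between 0.493% and 0.518%, and complex I, with more genes, between 0.228% and 0.245%.

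The highest level belonged to *Atp5b*, the catalytic beta subunit of the ATP synthase, at 933 ± 37.9 CPM per kilobase (SD, n = 2). *Atp5a1*, the alpha subunit that alternates with it in the F1 head, was at 492 ± 7.28 (SD, n = 2). The central stalk genes were lower, with *Atp5c1* (gamma) at 229 ± 6.55, *Atp5d* (delta) at 179 ± 0.548 and *Atp5e* (epsilon) at 199 ± 9.49 (SD, n = 2 each). Among these F1 genes, though not in complex V as a whole, *Atp5d* and *Atp5e* are neighbors in level. Their libraries, at 178.9 to 179.7 and 192.2 to 205.6, did not overlap. *Atp5g3*, a gene for the rotor ring, followed in complex V at 412 ± 4.84 (SD, n = 2). At the low end *Atp5pb* and *Atp5j2* were at 139 ± 3.2 and 138 ± 7.85 (SD, n = 2 each), with overlapping libraries. *Atp5l*, a membrane subunit of the same enzyme, was the lowest tested gene of complex V at 45.4 ± 0.614 CPM per kilobase (SD, n = 2), by the principal transcript of median length.

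In complex IV the order began with *Cox4i1* at 491 ± 9.39 CPM per kilobase, *Cox7c* at 330 ± 11.9 and *Cox6c* at 242 ± 6.09 (SD, n = 2 each). It went on with *Cox8a* at 231, *Cox6b1* at 223, *Cox7a2* at 198, *Cox6a1* at 177, *Cox7b* at 143, *Cox5b* at 130, *Cox5a* at 110 and *Cox7a2l* at 86.2 CPM per kilobase. *Cox5a* and *Cox5b* sit near the catalytic core of the enzyme, and these 8 genes were not called in any of the 3 comparisons. The core proteins of complex III were unequal, with *Uqcrc1* at 161 ± 3.0 and *Uqcrc2* at 82.9 ± 1.76 CPM per kilobase (SD, n = 2 each). *Uqcrh*, the acidic hinge protein, was the highest in complex III at 280 ± 15.1, and *Uqcrfs1*, the Rieske iron-sulfur protein, the lowest at 78.0 ± 2.80 (SD, n = 2 each). *Uqcr10*, *Uqcr11*, *Uqcrq* and *Uqcrb* lay between 162 and 180 CPM per kilobase. Within complex II the membrane anchors stood at opposite ends: *Sdhd* was at 139 ± 5.36 and *Sdhc* at 31.5 ± 1.42, with the flavoprotein *Sdha* at 105 ± 3.0 and the iron-sulfur protein *Sdhb* at 74.7 ± 1.2 (SD, n = 2 each). Complex I had the lowest median of the 5 complexes, at 62.9 CPM per kilobase over 38 tested genes, against 191 over 17 tested genes of complex V.

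Among the nuclear core subunits of complex I, which carry its flavin and iron-sulfur clusters, *Ndufv1* was at 86.9 ± 1.88 CPM per kilobase and *Ndufs3* was the lowest at 56.0 ± 0.793, with *Ndufs7* at 66.3 ± 1.44, *Ndufs1* at 61.8 ± 0.154, *Ndufs8* at 57.7 ± 0.687 and *Ndufv2* at 57.4 ± 2.61 (SD, n = 2 each). The accessory subunits ran from *Ndufa4* at 295 ± 16.7, *Ndufa7* at 246 ± 0.240 and *Ndufs6* at 125 ± 2.77 down to *Ndufb4* at 8.08 ± 0.376 (SD, n = 2 each), with *Ndufa4l2* and the pseudogene *Ndufs6b* lower still. *Ndufs5*, at 21.6 ± 1.93 (SD, n = 2), is uncertain, since its reads may also match the pseudogene *Ndufs5-ps*, which held 188 to 230 counts a library. In all, 8 genes outside the members are named as their pseudogenes, among them *Atp5l-ps1* and *Atp5l-ps2*, and the pseudogene *Ndufb4c* is named after *Ndufb4*. How reads with several matches were treated is not given. The levels of such genes, the low *Atp5l* and *Ndufb4* among them, are therefore uncertain as well. The transcript taken for the length matters for this order: with the longest principal transcript, *Ndufa7* and not *Ndufa4* was the highest of complex I, and *Uqcrq* and not *Uqcrfs1* the lowest of complex III. In complex V, *Atp5md*, at 25.95 CPM per kilobase, and *Atp5g1* were then both below *Atp5l*. Among the 3 highest of complex IV *Cox8a* replaced *Cox6c*, and among the 3 lowest of complex I *Ndufb2* replaced *Ndufb4*.

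**Figure D1:**
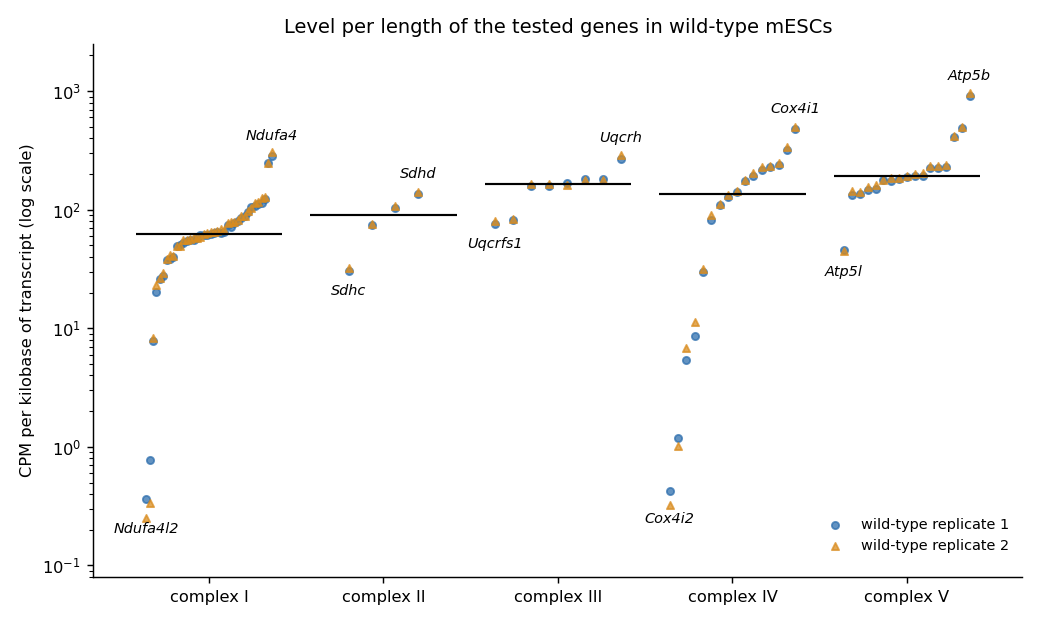
Level per length of the 83 tested genes in wild-type mESCs, by complex, in CPM per kilobase of transcript on a log scale. Circles are replicate 1 and triangles replicate 2, and black lines are medians of the genes of a complex. *Atp5b* at 933 CPM per kilobase is the highest point, and the lowest points of complexes I and IV are the hypoxia-regulated *Ndufa4l2* and the lung isoform *Cox4i2*.

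Several subunits of complex IV have a second gene that is used in a particular tissue, and in these libraries the widely expressed isoform carried nearly all of the transcripts. *Cox4i1* made up between 99.8% and 99.9% of the Cox4 transcripts per length in every library, and its lung isoform *Cox4i2* had 6 to 14 counts. *Cox6a1* held at least 99.97% against the heart and muscle isoform *Cox6a2*, which had 1 count in all 6 libraries. *Cox8a* held at least 99.8% against *Cox8b* and *Cox8c*. The muscle isoform *Cox7a1* was at 3.55% to 5.27% of the Cox7a transcripts, and *Cox7b2* at 0.458% to 0.835% of *Cox7b*. *Cox6c2*, a pseudogene named after *Cox6c*, was at 6.11 ± 0.939 CPM per kilobase in wild-type (SD, n = 2). *Cox6b2*, known from testis, was an exception, with 10.5% to 12.7% of the Cox6b transcripts and 334 to 485 counts per library. Other genes known from testis were at or near 0 in the same libraries: *Prm1* and *Tnp1* had no count and *Prm2* and *Pgk2* at most 1 count in a library, while *Ldhc* reached 1.29 CPM. All 7 muscle and heart markers examined were detected. In the wild-type libraries *Acta1* was at 26.5 and 26.0 CPM and *Myh6* at 8.91 and 8.57, while *Ckm* had 1 to 7 counts in the 6 libraries. The hypoxia-regulated *Ndufa4l2* had 1 to 11 counts, against 3465 to 3891 for *Ndufa4*.

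The heterozygous deletion was compared with wild-type to ask how the loss of the anchor on 1 allele changed expression. None of the 83 tested genes rose, and 4 fell, at an adjusted p below 0.05 in the quasi-likelihood fit of edgeR, with Benjamini-Hochberg adjustment across all tested genes. These were *Cox4i1*, *Ndufb7*, *Ndufa13* and *Uqcrq*, so 4.82% of the tested members were lower and 0 higher. Over all tested genes 2.23% were higher and 2.91% lower in this comparison. At an unadjusted p below 0.05 (edgeR), 1 member was higher and 11 lower. In both directions together these were 12 of 83 members, against 2757 of all 16951 tested genes. DESeq2 called 0 members higher and 3 lower. The median log2 fold change of the members was -0.06, against 0.00 over all genes, with 63 of 83 members below 0. This lean was not particular to the members. Of 77 tested genes of the mitochondrial ribosome, 60 were below and 17 above 0, with a median of -0.04. For 41 tested assembly factors the counts were 25 and 16, and for 17 genes of the TCA cycle and pyruvate dehydrogenase 9 and 8.

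*Uqcrq*, a small accessory subunit of complex III, stood at 68.4 and 65.3 CPM in the wild-type libraries, 60.8 and 51.6 with the heterozygous deletion and 72.3 and 62.5 with the homozygous deletion. Both heterozygous libraries were below all others, and the second of them was lower than the first by more than the wild-type libraries differed. Its log2 fold change was -0.25 ± 0.07 (SE) with an adjusted p of 0.0465, and over its alternatives the adjusted p ran from 0.000505 to 0.550 (edgeR and DESeq2). Without heterozygous replicate 2 or without wild-type replicate 2 no member was called in this comparison, and without wild-type replicate 1 a single member was. The other 3 genes that fell lie on chromosome 8 and are described with that chromosome below. *Uqcr10*, a small neighbor of *Uqcrq* in complex III, had 79.0 and 77.7 CPM in the wild-type and 71.0 and 65.8 in the heterozygous libraries (-0.20, adjusted p = 0.0702, edgeR) and did not pass the test.

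The core subunits of complex I all had lower fitted values in the heterozygous cells, between -0.20 for *Ndufs7* and -0.0044 for *Ndufv2*, and 0 of 7 passed the edgeR test, 2 of them with an unadjusted p below 0.05. In complex II 0 of 4 genes passed, 0 at an unadjusted p below 0.05, with log2 fold changes from -0.07 to 0.01. Of the F1 genes, *Atp5b* was at -0.07 (95% interval -0.16 to 0.02) and *Atp5a1* at -0.07 (-0.16 to 0.01). For 68 of the 83 genes the 95% interval of the log2 fold change lay within 0.3 of 0, so that changes larger than that were not detected in them in this comparison at this depth. The genes whose interval was wider than this bound include the low isoforms, such as *Cox4i2* at 0.76 (-0.23 to 1.75) from 6 to 12 counts a library.

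The homozygous deletion was compared with wild-type in the same way. Of the 83 tested genes, 5 rose (*Cox4i1*, *Ndufb7*, *Ndufa13*, *Ndufa4* and *Cox7c*) and 5 fell (*Ndufv3*, *Cox6b2*, *Ndufb10*, *Uqcr11* and *Atp5d*), or 6.02% in each direction. Over all tested genes 10.9% rose and 10.5% fell. An unadjusted p below 0.05 (edgeR) was found for 23 of the 83 members and 5511 of all 16951 tested genes. The median of the members was 0.0097 against -0.0061 over all genes. DESeq2 called 4 higher and 2 lower. When libraries were scaled by total counts alone, 3 rose and 10 fell, so that the share of higher calls went from 50% to 23.1%. Homozygous and heterozygous cells were compared with the same 2 wild-type libraries, so their values against wild-type are not independent of each other.

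*Ndufv3*, an accessory subunit of the flavoprotein part of complex I, had the largest log2 fold change of the called genes. It stood at 43.9 and 46.5 CPM in the wild-type libraries, 42.05 and 40.6 with the heterozygous deletion and 34.1 and 31.8 with the homozygous deletion. The homozygous libraries were below all others, and the heterozygous libraries were below wild-type with no overlap. The log2 fold change was -0.46 ± 0.06 (SE) in homozygous cells against wild-type, with an adjusted p of 1.65e-05 (edgeR). In heterozygous cells it was -0.13 ± 0.06 (SE) and did not pass (adjusted p = 0.290, edgeR). The gene lies at chr17:31520115-31531331 on the plus strand of GRCm38.

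*Ndufb10*, an accessory subunit of the membrane arm, stood at 58.6 and 59.7 CPM in the wild-type libraries, 55.0 and 54.3 with the heterozygous deletion and 50.6 and 50.7 with the homozygous deletion. The 3 genotypes did not overlap, and the fall in homozygous cells was -0.22 ± 0.05 (SE, adjusted p = 0.00386, edgeR). *Uqcr11*, a small accessory subunit of complex III, had 80.6 and 79.1 CPM in the wild-type libraries, 78.1 and 63.6 with the heterozygous deletion and 72.3 and 65.7 with the homozygous deletion. Here the second heterozygous library was below both homozygous libraries and the first was close to wild-type (homozygous against wild-type -0.21 ± 0.07, SE, adjusted p = 0.0377, edgeR). *Atp5d*, the delta subunit of the F1 stalk, had 167 CPM in both wild-type libraries, 163 and 144 with the heterozygous deletion and 155 and 145 with the homozygous deletion (-0.16 ± 0.05, SE, adjusted p = 0.0438, edgeR). Its second heterozygous library was again low, close to the lower of the homozygous ones.

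*Cox6b2* stood at 16.5 and 17.6 CPM in the wild-type libraries, 17.9 and 17.5 with the heterozygous deletion and 14.6 and 13.8 with the homozygous deletion. The homozygous libraries lay below the other 4, and the log2 fold change against wild-type was -0.26 ± 0.08 (SE, adjusted p = 0.0276, edgeR). Its share of the Cox6b transcripts per length was 12.1% and 12.2% in wild-type, 12.7% and 12.5% in heterozygous and 10.5% in both homozygous libraries. The partner *Cox6b1* did not pass the test, at -0.03.

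Off chromosome 8, only *Ndufa4* and *Cox7c* rose in the homozygous cells by this test. *Cox7c*, a small subunit of complex IV, had 173 and 183 CPM in the wild-type libraries, 177 and 166 with the heterozygous deletion and 201 and 194 with the homozygous deletion, which were above all others (0.15 ± 0.05, SE, adjusted p = 0.0247, edgeR). *Ndufa4* had 128 and 138 CPM in the wild-type libraries, 139 and 146 with the heterozygous deletion and 156 and 141 with the homozygous deletion. Its homozygous libraries overlapped the heterozygous ones, and the change against wild-type was 0.16 ± 0.05 (SE, adjusted p = 0.0434, edgeR). Of the 7 core subunits of complex I 0 passed the edgeR test against wild-type, 1 of them with an unadjusted p below 0.05, and of the 4 genes of complex II 0 passed, 0 at an unadjusted p below 0.05. The catalytic pair *Atp5a1* and *Atp5b* did not pass. The intervals were narrow there: *Sdha* was at 0.04 (95% interval -0.05 to 0.13), *Atp5a1* at 0.03 (-0.05 to 0.11) and *Atp5b* at 0.08 (-0.01 to 0.17).

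**Figure D2:**
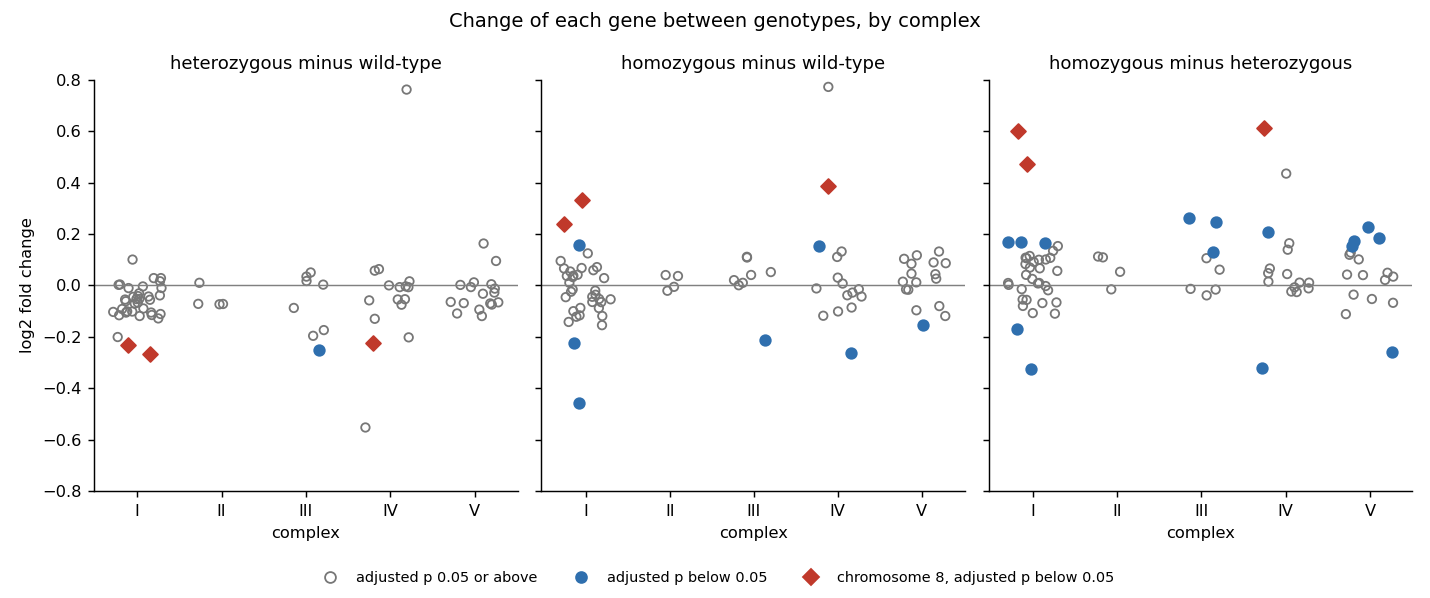
Log2 fold change of the tested genes in the 3 comparisons, by complex. Filled symbols passed an adjusted p below 0.05 in edgeR, and red diamonds are the 3 genes of chromosome 8. The 2 low genes *Ndufa4l2* and *Ndufs6b*, which had at most 11 counts in a library, lie outside the range of the axis and are not drawn. The red diamonds are below 0 in the first panel and above it in the others.

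No member passed an adjusted p below 0.05 together with a change of more than 2-fold in any of the comparisons. Over all tested genes 0.165% did so in heterozygous cells against wild-type, 2.14% in homozygous cells against wild-type and 1.39% in homozygous against heterozygous cells. The changes that passed in homozygous cells against wild-type were therefore small. On the log2 scale the 10 changes ran in size from 0.15 for *Cox7c*, a rise of 11.1%, to -0.46 for *Ndufv3*, which fell by 27.1%.

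The genes with the most regular pattern were the 3 on chromosome 8, which were lowest in heterozygous and highest in homozygous cells. *Cox4i1*, the larger regulatory subunit of cytochrome c oxidase, had 361 and 371 CPM in the wild-type libraries, 320 and 307 with the heterozygous deletion and 500 and 458 with the homozygous deletion. *Ndufb7* had 67.5 and 71.4 CPM in the wild-type libraries, 62.2 and 53.2 with the heterozygous deletion and 92.3 and 82.6 with the homozygous deletion. *Ndufa13*, also known as GRIM-19, had 77.0 and 74.3 CPM in the wild-type libraries, 66.4 and 62.4 with the heterozygous deletion and 95.3 and 83.7 with the homozygous deletion. For all 3 genes the 3 genotypes did not overlap.

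The log2 fold changes in heterozygous cells were -0.22 ± 0.05 for *Cox4i1*, -0.27 ± 0.07 for *Ndufb7* and -0.23 ± 0.06 for *Ndufa13* (SE, adjusted p = 0.00513, 0.0231 and 0.0237, edgeR). In homozygous cells they were 0.39 ± 0.05, 0.33 ± 0.07 and 0.24 ± 0.06 (SE, adjusted p = 2.61e-06, 0.000960 and 0.00518, edgeR). The same directions were common on the whole chromosome. Of the 890 tested genes of chromosome 8, 13.6% were lower in heterozygous cells, 61.5% higher in homozygous cells against wild-type and 65.7% higher in homozygous against heterozygous cells. The median log2 fold change of the chromosome was 0.39 in homozygous cells against wild-type and -0.12 in heterozygous cells, while the medians of the other chromosomes lay between -0.05 and 0.03 in these comparisons. The genes lie far apart, with *Ndufa13* at chr8:69894180-69902558 (minus strand), *Ndufb7* at chr8:83566671-83571626 (plus strand) and *Cox4i1* at chr8:120668222-120674207 (plus strand). DNA copy number was not measured in the files used here, and its part in these values was not tested.

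Promoters of some genes that changed are printed here, because many respiratory genes are known to share binding sites of NRF1, of ETS factors such as GABP and of YY1 at their starts. *Ndufb7* and *Ndufa13* moved with chromosome 8, and *Ndufv3*, *Ndufb10* and *Uqcr11* are the genes of complexes I and III that fell in homozygous cells. The sequences are from RefSeq, run from 250 bases before to 50 bases after the start in build GRCm38.p6 and read 5′ to 3′ on the gene's strand. Capitals mark GCGCANGCG (NRF1), CCGGAAG (ETS) or AAGATGGCG (YY1), searched on both strands. The entries are *Ndufb7* (chr8:83566508-83566807, plus), *Ndufa13* (chr8:69901971-69902270, minus), *Ndufv3* (chr17:31519865-31520164, plus), *Ndufb10* (chr17:24724374-24724673, minus) and *Uqcr11* (chr10:80406772-80407071, minus).
Ndufb7: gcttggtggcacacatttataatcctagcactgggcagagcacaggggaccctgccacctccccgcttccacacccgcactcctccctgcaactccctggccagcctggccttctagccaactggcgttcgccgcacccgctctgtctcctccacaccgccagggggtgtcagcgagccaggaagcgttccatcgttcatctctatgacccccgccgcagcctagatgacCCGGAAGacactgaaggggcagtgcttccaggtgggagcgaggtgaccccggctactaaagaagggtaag
Ndufa13: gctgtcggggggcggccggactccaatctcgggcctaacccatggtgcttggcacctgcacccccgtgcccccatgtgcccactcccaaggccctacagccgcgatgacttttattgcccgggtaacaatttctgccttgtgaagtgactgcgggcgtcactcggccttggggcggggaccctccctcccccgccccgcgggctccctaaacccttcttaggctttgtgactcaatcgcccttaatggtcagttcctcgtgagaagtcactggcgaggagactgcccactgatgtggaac
Ndufv3: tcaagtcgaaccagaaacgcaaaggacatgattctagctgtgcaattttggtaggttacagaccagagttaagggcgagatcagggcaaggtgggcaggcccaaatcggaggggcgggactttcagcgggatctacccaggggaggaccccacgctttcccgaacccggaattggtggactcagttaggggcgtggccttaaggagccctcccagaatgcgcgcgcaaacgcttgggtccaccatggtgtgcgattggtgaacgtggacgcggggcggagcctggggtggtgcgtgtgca
Ndufb10: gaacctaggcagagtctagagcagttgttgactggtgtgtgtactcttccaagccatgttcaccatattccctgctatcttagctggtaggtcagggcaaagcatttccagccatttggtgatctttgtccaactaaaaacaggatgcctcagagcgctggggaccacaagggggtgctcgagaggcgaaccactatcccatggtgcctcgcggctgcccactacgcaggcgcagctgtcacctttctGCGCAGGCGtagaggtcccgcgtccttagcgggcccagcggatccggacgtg
Uqcr11: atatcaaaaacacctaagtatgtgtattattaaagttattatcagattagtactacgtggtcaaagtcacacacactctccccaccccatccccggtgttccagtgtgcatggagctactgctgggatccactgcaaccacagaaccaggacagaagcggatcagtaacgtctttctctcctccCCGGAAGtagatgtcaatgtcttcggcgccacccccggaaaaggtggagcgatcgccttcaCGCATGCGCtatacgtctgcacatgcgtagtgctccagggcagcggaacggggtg

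The *Ndufb7* promoter held 1 ETS match, the *Ndufb10* promoter 1 NRF1 match and the *Uqcr11* promoter 1 of each, while the printed stretches of *Ndufv3* and *Ndufa13* held none of the 3 words. By the gene position given above, the *Ndufa13* stretch lies wholly inside the gene and does not reach its start at 69902558. The RefSeq start of *Ndufa13* thus differs from that position, and the sequence around the other start was not searched here. Of the 73 promoters found for 68 of the genes, 28.77% held the NRF1 word, 23.29% the ETS word and 9.589% the YY1 word. Among all 32851 promoters of the same length in the table, the shares were 6.249%, 8.858% and 1.403%. At least 1 of the words was in 50.68% of the members' promoters and 14.82% of all promoters. The NRF1 word can overlap its own reverse complement, and a promoter counts once however many matches it holds. The median log2 fold change in homozygous cells against wild-type was -0.02 for the 20 tested genes with the NRF1 word and 0.01 for the 47 without it.

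The plot of called genes by library shows the genes that passed against wild-type. In *Uqcrq*, *Uqcr11*, *Atp5d* and *Ndufb7*, among others, the heterozygous libraries lay farther apart than the wild-type libraries. In the genes of chromosome 8 the first homozygous library was above the second each time. This order was common among the members: over 79 of them the median log2 difference of homozygous replicate 2 minus replicate 1 was -0.10.

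**Figure D3:**
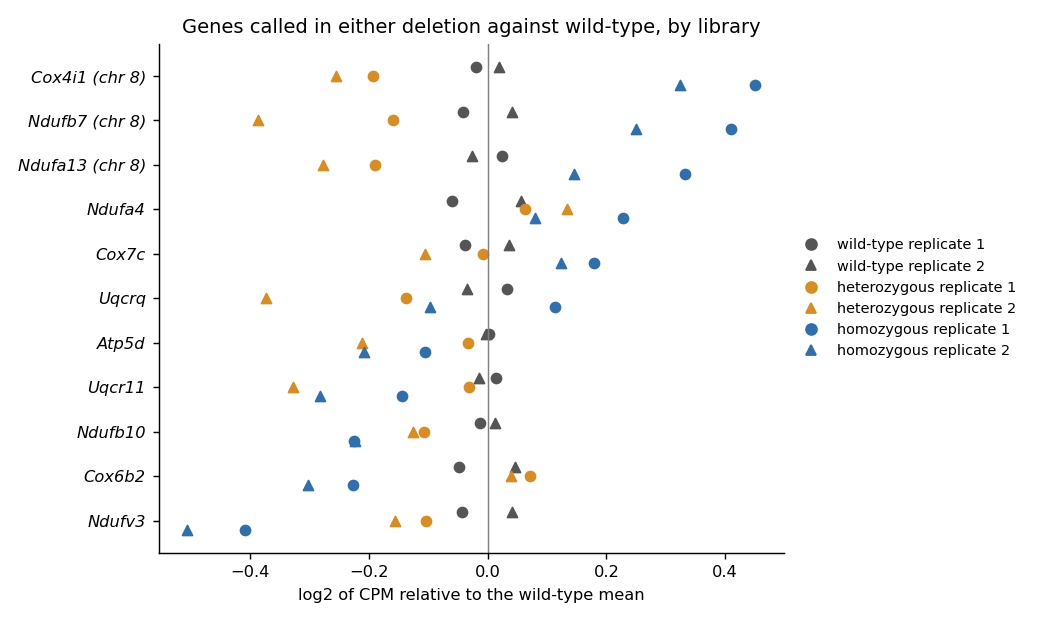
Log2 of CPM relative to the wild-type mean in each library for the 11 genes that passed an adjusted p below 0.05 in either deletion against wild-type. Colors are genotypes, circles replicate 1 and triangles replicate 2. The homozygous points of *Ndufv3* and *Ndufb10* lie left of all others of their gene, and those of the 3 chromosome 8 genes lie right of all others.

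Homozygous and heterozygous cells differed in more of these genes than either did from wild-type, as they did over all tested genes. Among the 83 tested members 14 had a higher and 4 a lower level in homozygous than in heterozygous cells, or 16.9% and 4.82%, while over all tested genes 12.9% were higher and 12.9% lower. Of the 80 tested members off chromosome 8, 13.8% were higher and 5.0% lower. Over all 13893 genes with a mean of at least 1 CPM, 15.4% were higher and 15.0% lower. The median of the members was 0.05 against -0.02 over all genes. The cell markers differed in the same comparison: of the 19 tested fibroblast markers 16 were lower and 1, *Mmp2* on chromosome 8, was higher (median -0.55), and of the 9 pluripotency markers 8 were higher and 0 lower (median 0.21). Their part in the members' values was not tested. This asymmetry did not hold under scaling by total counts alone, which gave 6 higher and 8 lower and a member median of -0.02. It also moved with single libraries, to 26 higher and 3 lower without homozygous replicate 2, 6 and 4 without homozygous replicate 1, 7 and 3 without heterozygous replicate 1 and 5 and 2 without heterozygous replicate 2.

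In complex V the higher genes were *Atp5g2*, *Atp5j2*, *Atp5e* and *Atp5b*, and *Atp5l* was lower. *Atp5b* had 1700 and 1709 CPM in heterozygous against 1967 and 1823 in homozygous libraries, with wild-type at 1737 and 1840, which overlapped the homozygous libraries (homozygous against heterozygous 0.15 ± 0.04, SE, adjusted p = 0.0123, edgeR). *Atp5l* had 26.6 and 28.7 CPM in heterozygous, 21.4 and 24.7 in homozygous and 24.9 and 24.5 in wild-type libraries (-0.26 ± 0.08, SE, adjusted p = 0.0171, edgeR). In complex III the higher genes were *Uqcrq*, *Uqcr10* and *Uqcrc1*. *Uqcr10* had 71.0 and 65.8 CPM with the heterozygous and 87.0 and 75.6 with the homozygous deletion (0.25 ± 0.06, SE, adjusted p = 0.00499, edgeR). In complex I the higher genes off chromosome 8 were *Ndufs1*, *Ndufb5* and *Ndufb11*, with changes of 0.16 to 0.17, and *Ndufv3* and *Ndufa3* were lower. *Ndufs1*, the largest core subunit with iron-sulfur clusters, had 153 and 158 CPM in heterozygous, 180 and 169 in homozygous and 160 in both wild-type libraries. In complex IV *Cox7c* was higher and *Cox6b2* lower, and in complex II 0 of 4 genes passed, with *Sdha* the nearest at 0.11 (adjusted p = 0.0574, edgeR).

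Subunit c, which forms the rotor ring of the ATP synthase, is made from 3 genes that encode the same mature protein. *Atp5g3* made up 49.4% to 52.4% of their transcripts per length in the 6 libraries. The share of *Atp5g2* was 21.6% and 22.1% in the wild-type libraries, 21.4% and 20.2% with the heterozygous deletion and 23.1% and 23.8% with the homozygous deletion. The share of *Atp5g1* was 28.3% and 28.5% in the wild-type libraries, 28.2% and 27.4% with the heterozygous deletion and 26.6% and 25.1% with the homozygous deletion. The homozygous libraries thus lay above all others for *Atp5g2* and below all others for *Atp5g1*. The shares themselves depend strongly on the transcript taken for the length. With the longest principal transcript, *Atp5g3* made up 73.6% to 76.2%, *Atp5g2* 17.9% to 21.0% and *Atp5g1* 5.36% to 6.31%. The homozygous libraries kept their place for *Atp5g2* and *Atp5g1*. With 2 libraries a genotype no test of these shares was made. Of the gene levels, *Atp5g2* rose in homozygous against heterozygous cells (0.23 ± 0.05, SE, adjusted p = 0.00390, edgeR), and *Atp5g1* did not pass in any comparison. An exon stretch of *Atp5g2* is shared with *Mir688* on the same strand.

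As a group the members moved between replicates of the same genotype about as much as between genotypes. For the 76 tested genes off chromosome 8 with a mean of at least 1 CPM, the median log2 level relative to the wild-type mean was -0.02 and 0.02 in the wild-type libraries, -0.03 and -0.07 in the heterozygous libraries and 0.05 and -0.04 in the homozygous libraries. In the first homozygous library 52 of the 76 were above the wild-type mean, and in the second 52 were below it. Accordingly, leaving out homozygous replicate 1 changed the counts against wild-type from 5 higher and 5 lower to 2 higher and 11 lower, and leaving out replicate 2 changed them to 14 higher and 2 lower. Without wild-type replicate 1 they were 3 and 2, and without wild-type replicate 2 they were 4 and 1. *Ndufv3*, *Cox4i1* and *Ndufb7* kept their call in homozygous cells against wild-type under each of these omissions and under the other alternatives tried, except the 2-fold threshold, which no member passed, and the omission of chromosome 8 genes, which left *Cox4i1* and *Ndufb7* untested.

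**Figure D4:**
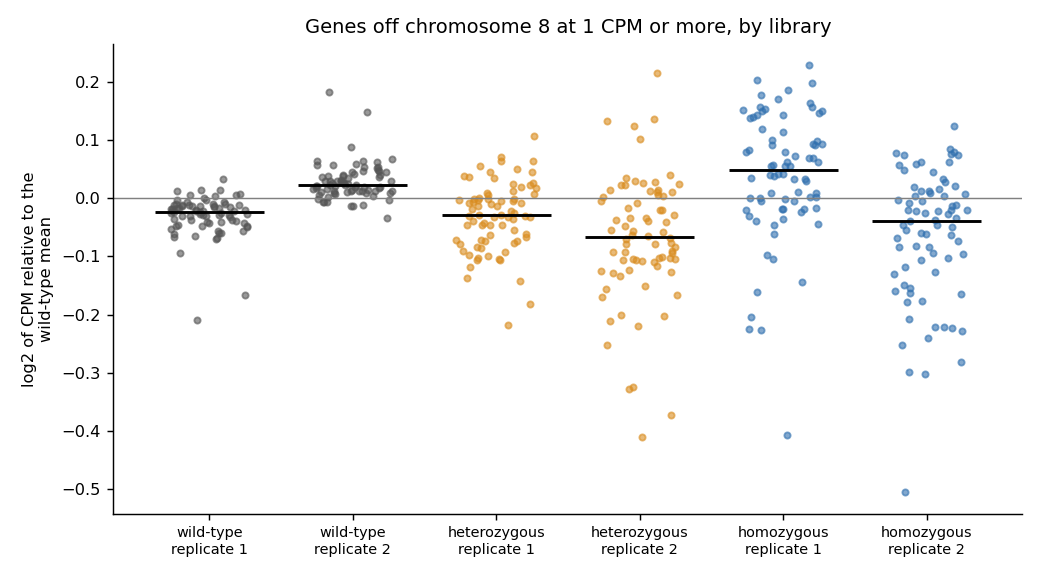
Log2 of CPM relative to the wild-type mean for the 76 tested genes off chromosome 8 with a mean of at least 1 CPM, in each of the 6 libraries. Each point is a gene and black lines are medians. The medians of the homozygous libraries, 0.05 and -0.04, lie on opposite sides of 0.

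The changes went with base composition. Over the 80 tested members off chromosome 8, Spearman's rho between transcript GC content and log2 fold change was -0.54 in heterozygous and -0.39 in homozygous cells against wild-type, and -0.09 between the deletions. Over all 16050 tested genes off chromosome 8, rho was -0.13, -0.13 and -0.04. The genes share their libraries and these values are descriptions without a test. The same relation was present between the 2 heterozygous libraries, where replicate 2 minus replicate 1 gave -0.51 over the members and -0.27 over all genes. It was weaker between the wild-type libraries (-0.19 and -0.03) and between the homozygous libraries (-0.12 and -0.12). *Uqcrq*, *Uqcr11* and *Atp5d*, whose second heterozygous library was low, have GC contents of 57.8%, 58.9% and 61.1% against a median of 51.9% over the tested members. The 3 chromosome 8 genes lie in the same GC range, at 57.6% to 60.4%, and were high in homozygous cells. With a GC term in the fit, 3 members rather than 5 were lower in homozygous cells against wild-type and 20 rather than 14 were higher against heterozygous cells. In heterozygous cells against wild-type the 4 calls were kept and 5 members were called. With this term rho over the members was still -0.37 in heterozygous cells, and it was -0.11 in homozygous cells against wild-type and 0.03 between the deletions.

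**Figure D5:**
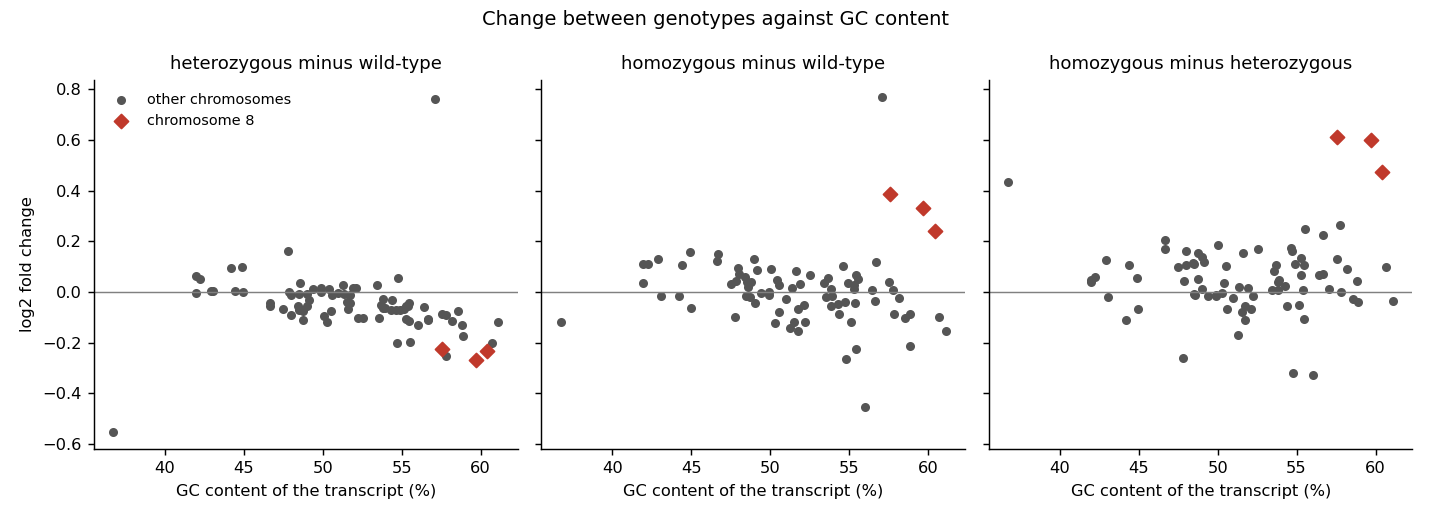
Log2 fold change against the GC content of the transcript, in percent, for the tested genes in the 3 comparisons, without *Ndufa4l2* and *Ndufs6b* as above. Gray points are genes of other chromosomes and red diamonds the 3 genes of chromosome 8. Points fall from left to right in the first panel, where rho over the members off chromosome 8 was -0.54.

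Genes that work with these subunits were read against the same shares of all tested genes, 2.23% higher and 2.91% lower in heterozygous and 10.9% and 10.5% in homozygous cells against wild-type, and 12.9% in each direction between the deletions. Of 9 respiratory chain genes outside the name rule, which include *Cyc1*, *Cycs* and *Atpif1*, 1 was higher in homozygous cells against wild-type. It was *Etfa*, a subunit of the electron transfer flavoprotein, with 58.6 and 61.4 CPM in the wild-type libraries and 73.4 and 74.7 with the homozygous deletion (0.30, adjusted p = 0.000198, edgeR). Of 41 tested assembly factors, 1 was lower in each deletion against wild-type, *Ecsit* at -0.23 in heterozygous and *Uqcc3* at -0.34 in homozygous cells. Of 17 genes of the TCA cycle and pyruvate dehydrogenase, *Suclg2* rose in homozygous cells (0.31) and 0 passed in heterozygous cells, with 0 at an unadjusted p below 0.05. Of 77 tested genes of the mitochondrial ribosome, 0 passed in heterozygous cells, with 9 at an unadjusted p below 0.05, and 3 rose and 4 fell in homozygous cells against wild-type. The rising ones included *Mrps31* (0.49) and *Mrpl34* (0.23), which lie on chromosome 8. Between the deletions, 10 genes of the mitochondrial ribosome were higher and 2 lower in homozygous cells, or 13.0% and 2.6%, the 2 being *Mrps24* and *Mrps15*. Of the assembly factors 4 were higher (*Uqcc2*, *Cox15*, *Ecsit* and *Coa6*, the last on chromosome 8) and 2 lower (*Ndufaf6* and *Uqcc3*). Of the TCA cycle genes *Suclg2* was higher and *Idh2* and *Pdha1* lower, and *Etfa* was again higher.

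Of 17 tested regulators of respiratory gene expression, *Esrrb*, an estrogen-related receptor that is also a pluripotency gene, fell in heterozygous cells (-0.38), and *Pprc1*, a coactivator related to PGC-1, rose in homozygous cells (0.18). *Esrrb* was higher in homozygous than in heterozygous cells by 0.40, as was *Pprc1* by 0.21, while *Slirp* was lower (-0.27). Of the 9 pluripotency markers, 5 (55.6%) fell in heterozygous cells and 1 rose in homozygous cells against wild-type, which was *Zfp42* on chromosome 8, and their part in the values of the respiratory genes was not tested. The 13 mitochondrially encoded subunits were at 0 counts in every library, as were all 37 mitochondrial genes of the table, and they were not analysed here. Of the tested members, 5 share exon bases with another gene on the same strand (*Ndufb2*, *Ndufb8*, *Ndufb9*, *Atp5o* and *Atp5g2*) and their counts may be divided with it. Another 26 share bases with a gene on the other strand, and the strand setting of the counting is not given in the sources used here.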

How the data were processed

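Poly(A) RNA of G4 mESCs was sequenced from stranded libraries, and the authors deposited raw, whole-number read counts of 55385 genes in 6 libraries. The submitters' processing notes name Trimmomatic 0.39, STAR 2.6.1d, SAMtools 1.9, featureCounts 1.6.4, DESeq2 1.22.2 and the build mm10, without their settings. The strand setting and the treatment of reads with several matches are not given in the sources used here. Genotype and replicate number came from the sample labels, which give 2 libraries a genotype, while the methods state triplicates.

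From the deposited counts, the 16951 genes that reached 10 counts in 2 or more libraries were tested in edgeR 4.0.16 (R 4.3.3) with TMM factors and a quasi-likelihood fit of 3 genotypes over all 6 libraries, which leaves 3 residual degrees of freedom. A gene was called at a Benjamini-Hochberg adjusted p below 0.05 over all tested genes. The common biological coefficient of variation was 3.52%. CPM values use the TMM factors. Positions, GC content and lengths came from GENCODE vM21 on GRCm38, which held 55144 of the identifiers, with the principal transcript of median length for each gene. The fit was tested on simulated data. Tables and plots used Python 3.11.15, pandas 2.3.3, numpy 2.4.6, scipy 1.17.1 and matplotlib 3.10.9.

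The members and lists were chosen with earlier results of these data known. The named genes are those with fixed roles (the complex I core, complexes II and IV, 6 genes of complex III, F1 and subunit c), the 5 highest and 5 lowest called members of each comparison whose libraries did not overlap, the 3 highest and 3 lowest of each complex by level per length, and the genes of chromosome 8. Replicate numbers did not pair the libraries: deviations of same-numbered libraries from their group means correlated at 0.0261, -0.0944 and 0.00865 between genotypes. Counts of the 2 libraries of a genotype gave a chi-square per degree of freedom between 2.354 and 3.619, above that of sampling alone. This value cannot show whether the libraries came from separate cultures. Each library was counted as a replicate. The alternatives tried were a 2-fold threshold, DESeq2 1.42.0, edgeR with the size factors of DESeq2 or with total counts, a looser and a stricter filter on counts, only the libraries compared, a replicate block, leaving out each library and leaving out chromosome 8. A GC offset, the block with it and the longest principal transcript were added after seeing the data. Protein sequences and the deletion breakpoints were not analysed here. Some values of single genes are not reported here.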

Additional observations from a re-analysis of the deposited data

Results flagged for a closer look

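The 2 deletions differed from each other in 18 of the 83 tested genes, by the test of the homozygous against the heterozygous libraries in edgeR. These were 16.9% higher and 4.82% lower, against 12.9% in each direction over all tested genes. The largest of these differences were those of the 3 genes on chromosome 8, with a log2 fold change of 0.6117 for *Cox4i1*, 0.5996 for *Ndufb7* and 0.4733 for *Ndufa13*. These genes lay below wild-type in heterozygous and above it in homozygous cells, as did the median of the whole chromosome.

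Off chromosome 8, 11 of 80 tested genes (13.8%) were higher in homozygous than in heterozygous cells, a share near that of all tested genes. In complex III these were *Uqcrq* (0.2626), *Uqcr10* (0.2481) and *Uqcrc1* (0.1284). In complex V they were *Atp5g2* (0.2264), *Atp5j2* (0.1836), *Atp5e* (0.1735) and *Atp5b* (0.1529). In complexes I and IV they were *Cox7c* (0.2064), *Ndufb11* (0.1687), *Ndufs1* (0.1678) and *Ndufb5* (0.1629). Of these 11, only *Cox7c* was called against wild-type in homozygous and only *Uqcrq* in heterozygous cells.

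The 4 lower genes were *Ndufv3* (-0.3274), *Cox6b2* (-0.321), *Atp5l* (-0.2598) and *Ndufa3* (-0.1706). In *Ndufv3* and *Cox6b2* the difference came with a call in homozygous cells against wild-type, while *Atp5l* and *Ndufa3* were not called against wild-type in either deletion.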

How the results depend on the processing

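Of the 32 calls of a member in a comparison, a 2-fold threshold kept 0. Under the other alternatives that could test them, 7 were kept in each, 25 were lost under at least 1 and 0 changed direction. Replicate numbers are only shared labels here, and the replicate block kept 29 of the calls. The block gave 0 higher and 5 lower in heterozygous cells against wild-type, 4 and 5 in homozygous cells against wild-type and 13 and 3 between the deletions, and moved no count by over 1.5 times. With every gene that had any count 7 members were lower in heterozygous cells, and without chromosome 8 genes 1 was. Against wild-type in homozygous cells, 3 were higher and 3 lower without chromosome 8 genes, of which the 3 genes there could not be tested, 3 higher and 10 lower with total counts only, 2 lower with DESeq2, 3 lower with the GC offset and 2 lower with the replicate block and GC offset together. Between the deletions, 6 were higher and 8 lower with total counts only, and 1 was lower with DESeq2. Total counts only moved the medians to -0.0479 in homozygous cells against wild-type and to -0.0197 between the deletions. The cause of these moves was not tested.

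Leaving out each library in turn gave 0 to 6 lower members in heterozygous cells, 2 to 14 higher and 1 to 11 lower in homozygous cells, and 5 to 26 higher and 2 to 4 lower between the deletions. Where that left 1 library in a genotype, it was assumed to vary like the others. The medians ran from -0.0801 to -0.0277, from -0.0346 to 0.0564 and from 0.0085 to 0.0919 in the 3 comparisons. The wild-type and subunit c shares by length also depend on the transcript chosen. For genes such as *Cox4i2* with 6 to 14 counts, the depth leaves wide intervals.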
